A study of Amaranthus hybridus and Amaranthus hypochondriacus with 18 samples.

Results

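Transcripts of Amaranthus hybridus leaves that were higher in every library of plants under water deficit than in every control library are described here, 96 in number of 30155 in the count table, or of 9686 that were tested. They were chosen by the measured values of the same libraries: among the tested transcripts, all 3 water deficit libraries had to lie above all 3 control libraries on the log2 CPM scale (CPM, counts per M counts of the scaled library, M meaning mega), and each at least 0.6 above the control mean, which 500 transcripts met. These 500 were ranked by the distance between the lowest water deficit library and the highest control library, the first 100 were kept, and 4 of the 100 whose ids the rule sets aside were left out. The distance between groups is therefore a property of the choice and not a result.

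The study compared leaf transcriptomes of amaranths under drought and salinity, and sequenced RNA of wild-type plants grown in pots in a greenhouse. Water deficit plants received no irrigation for 14 days. Salt-stressed plants received 100 ml of NaCl solution a day, at 0.15 M for 7 days, 0.3 M for 4 days and 0.5 M for the last 3 days. Control plants were irrigated throughout. Each group has 3 libraries, each made from mature leaves, leaves 5, 6 and 7 counted from the apex, pooled over 3 plants. In such bulk samples, fewer cells of a type and less RNA per cell cannot be told apart.

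When soil water runs out, leaves close their stomata, and abscisic acid signalling, sugar transport, amino acid breakdown and protein folding and degradation are known to be adjusted in many plants. Photosynthesis genes usually fall. The circadian clock of plants is a set of transcription regulators that repress each other in turn over the day. Among them are the pseudo-response regulators, to which TIMING OF CAB EXPRESSION and the flowering regulators PRR37 of sorghum and BOLTING TIME CONTROL 1 of beet belong.

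Libraries held 14.6 to 28.7 M counts, but the 20 most abundant transcripts took 85.9% to 98.7% of them, and 0.339 to 2.55 M counts were left for all others. Control 3 stood apart, with 2.55 M counts outside the 20 most abundant transcripts and a TMM scaling factor of 4.95, against 0.349 to 1.51 in the other 8 libraries. The 4 leaf transcripts used as a check of the tissue, those of a chlorophyll a-b binding protein, a photosystem I subunit, the small subunit of rubisco and a carbonic anhydrase, were detected in all 9 libraries. They were low under water deficit, where 3 of the 4 were called lower than in controls. The chlorophyll a-b binding protein (DN9789_c1_g1_i1) had 0.775, 0.484 and 1.19 CPM in water deficit libraries, 9.20, 12.2 and 8.55 CPM in salt libraries and 13.7, 14.5 and 31.8 CPM in controls. These low leaf transcripts went together with the rise of the members, and its part in their values was not tested. None of the 10 transcripts described as viral or mobile elements was a member. None of 48 transcripts whose descriptions matched plastid or mitochondrial genes was a member either. Those 48 were sought only in the study's list of transcripts lower under salt. Of the 51 members with a description, 50 were in its list of transcripts higher under water deficit, so nothing follows from this absence.

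The distance that ranked the members ran from 3.55 down to 0.71 on the log2 scale, with a median of 0.87, and it was at least 1 in 33 of the 96. Just inside the limit were DN7769_c0_g1_i1 and DN4477_c0_g1_i1, both at 0.71, and just outside were DN23860_c0_g1_i1 at 0.71 and DN4019_c0_g1_i1 at 0.70, so the limit falls within a dense run of values. DN4477_c0_g1_i1, the last member, had 0.568, 0.572 and 0.596 CPM in water deficit libraries, 0.400, 0.377 and 0.404 CPM in salt libraries and 0.20, 0.259 and 0.317 CPM in controls. The members were thinly covered: their median library held 12.5 counts, against 19 over all tested transcripts, and 31 of the 96 had a median below 10 counts. The fewest counts of a member in a water deficit library were 3, 15 members had fewer than 10 in at least 1 water deficit library, and 9 had fewer than 10 summed over the controls.

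Of the 96 members, 54 were called higher under water deficit than in controls (FDR below 0.01 and an absolute log2FC, or log2 fold change, above 1), where the share over all tested transcripts was 0.96% higher. All 96 had an unadjusted p under 0.05 and a positive log2FC, where the share of all tested transcripts was 10.7%, and the same share, 10.7%, of all tested transcripts had their water deficit libraries above all controls. These libraries chose the members, so nothing follows from the counts. The log2FC of the members had a median of 1.92, between 0.97 and 6.21, beside a median of 0.01 for all tested transcripts. No library of a group overlapped the other in any member, called or not. Without water deficit 1 or water deficit 2 the number called was 15 each, of 20 and 24 called higher among all transcripts tested in those fits. Leaving out control 3, 2 or 1 gave 18, 21 and 35 calls, and leaving out salt 2 or 3 gave 32 and 33. Of the 54 called members, 8 were called in each of the 9 fits that left out a library. Over all tested transcripts the number called higher was 93, and 20 to 105 in the fits without a control or a salt library.

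**Figure D1:**
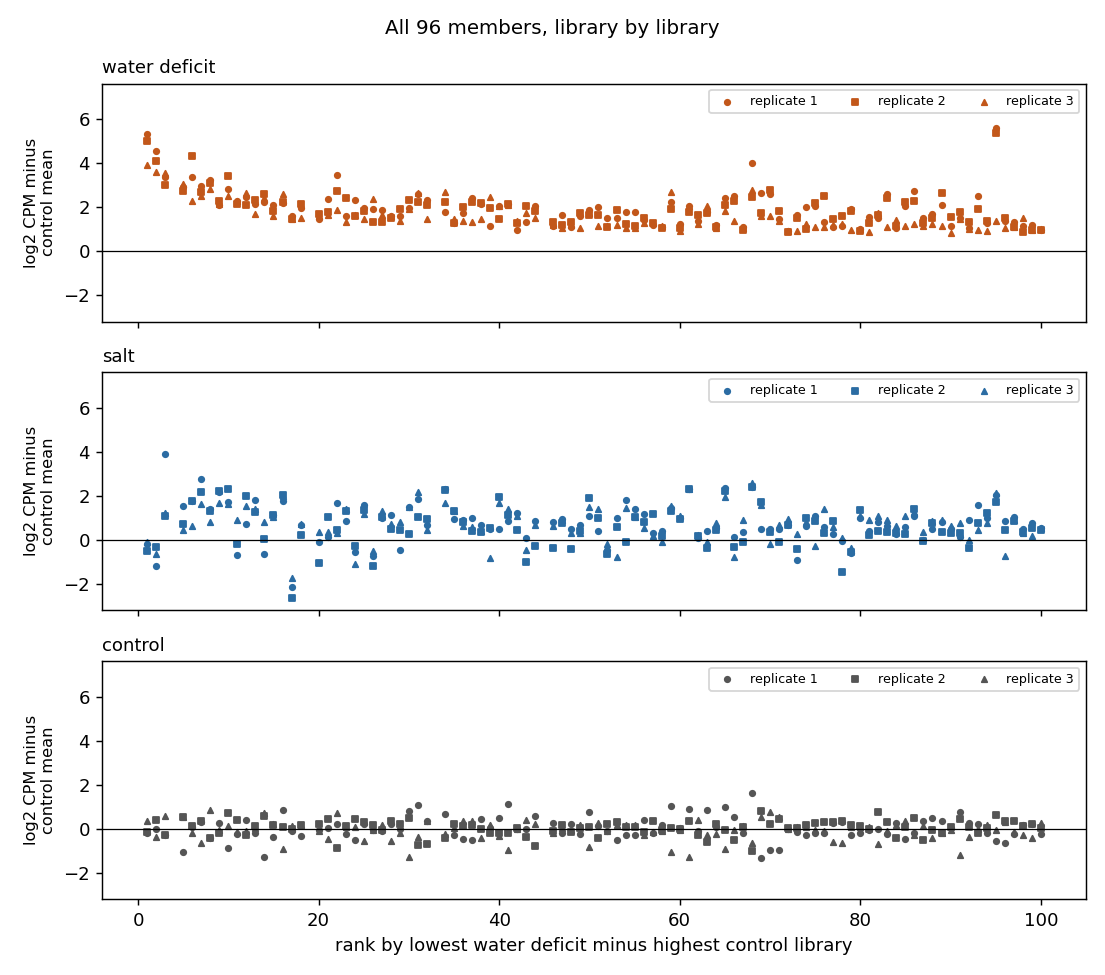
Each of the 96 members at its rank (x axis, ranks 1 to 100 with 4 ids left out), with its log2 CPM in each library minus the mean of the 3 controls on the y axis, in panels for water deficit, salt and control. The water deficit points lie above 0 by the choice of members, whereas salt points spread on both sides of 0, with 81 of 96 fitted log2FCs above 0.

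Which water deficit library was lowest was uneven among the members. It was water deficit 3 in 55 members, water deficit 2 in 24 and water deficit 1 in 17, whereas over all tested transcripts water deficit 3 was lowest in 38.1%. Within the water deficit group, the members' libraries spanned a median of 0.55 on the log2 scale, and all tested transcripts spanned 0.71. The corresponding spans within controls were 0.68 for the members and 0.77 for all, and within salt libraries, which entered the filter and the scaling but not the ranking, 0.63 for the members and 0.60 for all. The ranking used the lowest water deficit and the highest control library, which favours narrow spans within both groups. The tally of lowest libraries rests on the same values, so neither is a result about the members.

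The largest distances belonged to transcripts with no name in the sources used here. DN8466_c0_g1_i1 had 7.95, 6.42 and 2.98 CPM in water deficit libraries, against 0.100, 0.0629 and 0.110 CPM in salt libraries and 0.100, 0.104 and 0.181 CPM in controls. Its log2FC against controls was 5.21 ± 0.44 (SE). Salt libraries lay as low as the controls.

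DN8313_c0_g1_i1, described as uncharacterized, had 4.13, 2.95 and 2.09 CPM in water deficit libraries, 0, 0.0629 and 0.0367 CPM in salt libraries and 0.100, 0.156 and 0.0565 CPM in controls. The 175 counts of the water deficit libraries stood against 2 counts of the salt libraries, a ratio of 83.8 per unit of library size with an exact 95% counting interval of 22.8 to 697. This interval was taken on summed counts, so it covers counting error alone and leaves out differences between pools. The water deficit libraries also chose this transcript, so the ratio is a description. No salt or control library held more than 5 counts of DN8313_c0_g1_i1. DN8466_c0_g1_i1 had 1, 1 and 3 counts in salt libraries and 1, 2 and 16 counts in controls.

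The next unnamed members varied in their salt values. DN2382_c0_g1_i1 had 0.930, 0.704 and 1.04 CPM in water deficit libraries, 1.40, 0.126 and 0.147 CPM in salt libraries and 0, 0 and 0.0678 CPM in controls, with salt 1 alone at the level of water deficit. DN26894_c0_g1_i1 had 0.930, 0.835 and 0.670 CPM in water deficit libraries, 0.20, 0.189 and 0.110 CPM in salt libraries and 0, 0 and 0.113 CPM in controls. DN10725_c0_g1_i1 had 0.568, 0.660 and 0.596 CPM in water deficit libraries and nearly the same in salt libraries, 0.60, 0.629 and 0.404 CPM, against 0.100, 0.0518 and 0.0678 CPM in controls. In the last of these, the water deficit and salt libraries overlapped and both lay above every control.

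**Figure D2:**
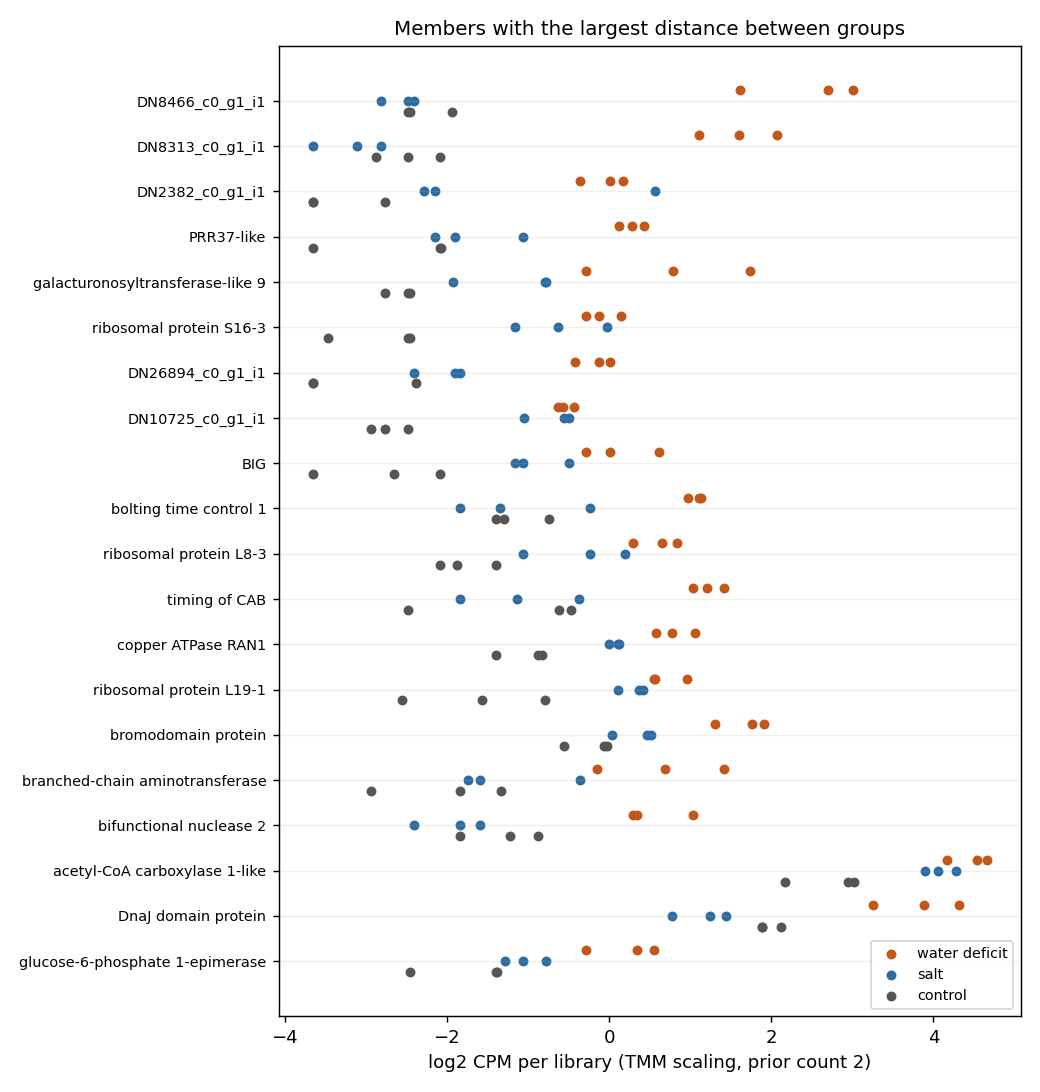
Log2 CPM of each library (x axis, 3 points per group) for the 15 named and 5 unnamed members with the largest distance, in rank order from the top. Salt libraries (blue) lie with the controls (grey) for DN8466_c0_g1_i1 and timing of CAB, and overlap with water deficit (orange) for DN10725_c0_g1_i1, ribosomal protein S16-3 and acetyl-CoA carboxylase 1-like.

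Clock components were among the named members with the largest distances. The study's methods give no hour of leaf collection, and its part in these values was not tested. A transcript described as a PRR37-like response regulator (DN19862_c0_g1_i1) had 1.14, 1.01 and 1.27 CPM in water deficit libraries, 0.400, 0.189 and 0.147 CPM in salt libraries and 0, 0.156 and 0.158 CPM in controls. BOLTING TIME CONTROL 1 (DN24256_c0_g1_i1) had 2.12, 1.89 and 2.09 CPM in water deficit libraries, 0.20, 0.314 and 0.770 CPM in salt libraries and 0.300, 0.518 and 0.328 CPM in controls. A partial TIMING OF CAB transcript (DN7319_c0_g1_i1) had 1.96, 2.59 and 2.23 CPM in water deficit libraries, 0.20, 0.377 and 0.697 CPM in salt libraries and 0.100, 0.570 and 0.644 CPM in controls.

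In all 3 of these transcripts the water deficit libraries lay above every salt library, and the salt libraries overlapped the controls. Against controls, the log2FC under water deficit was 3.01 ± 0.50 for the PRR37-like regulator, 2.41 ± 0.40 for BOLTING TIME CONTROL 1 and 2.13 ± 0.43 for TIMING OF CAB (SE). Against salt, BOLTING TIME CONTROL 1 was called higher under water deficit, with a log2FC of 2.05 ± 0.40 and an edgeR quasi-likelihood FDR of 0.00972. TIMING OF CAB just missed that limit with a log2FC of 2.25 ± 0.45 and an FDR of 0.0111, and the PRR37-like regulator had 2.36 ± 0.51 and an FDR of 0.017. In the 9 fits that left out a library, BOLTING TIME CONTROL 1 and TIMING OF CAB were each called 3 times against salt. The PRR37-like regulator was called in 1 of these fits. The water deficit libraries also chose these members, so the calls do not set them apart.

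Other transcription regulators were a bromodomain protein, whose domain binds acetylated histones, and members of the bZIP and bHLH families. The bromodomain transcript (DN13746_c0_g1_i1) had 3.30, 3.69 and 2.38 CPM in water deficit libraries, 1.30, 0.943 and 1.36 CPM in salt libraries and 0.60, 0.881 and 0.904 CPM in controls, an ordered pattern with no overlap between groups. A transcript like common plant regulatory factor 1 (DN5728_c0_g2_i1), a bZIP factor that binds G-box elements in parsley, had 3.30, 2.90 and 1.12 CPM in water deficit libraries, 0.800, 0.629 and 0.954 CPM in salt libraries and 0.400, 0.622 and 0.441 CPM in controls. A bHLH130-like factor (DN8350_c0_g1_i1) had 6.71, 7.61 and 3.50 CPM in water deficit libraries, 2.40, 1.89 and 3.41 CPM in salt libraries and 1.10, 1.66 and 2.02 CPM in controls. In the bZIP and bHLH transcripts water deficit 3 was the lowest of its group and came close to the highest salt library.

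Transcripts of 3 ribosomal proteins were among the named members. They were not a list of their own, and other ribosomal protein transcripts were not tallied. The transcript of 40S ribosomal protein S16-3 (DN6130_c0_g2_i1) had 1.03, 0.835 and 0.745 CPM in water deficit libraries, 0.900, 0.566 and 0.367 CPM in salt libraries and 0.100, 0.104 and 0.0113 CPM in controls. That of L8-3 (DN18716_c0_g1_i1), of the large subunit, had 1.5, 1.14 and 1.71 CPM in water deficit libraries, 0.400, 1.07 and 0.770 CPM in salt libraries and 0.300, 0.156 and 0.192 CPM in controls. That of L19-1 (DN16794_c0_g1_i1) had 1.39, 1.41 and 1.86 CPM in water deficit libraries, 1.00, 1.26 and 1.21 CPM in salt libraries and 0.500, 0.259 and 0.0904 CPM in controls.

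In each of the 3, every salt library lay above every control. Salt against control gave a log2FC of 3.71 ± 0.72 for S16-3, 1.93 ± 0.44 for L8-3 and 2.57 ± 0.50 for L19-1, none of which passed the quasi-likelihood test after adjustment (edgeR FDR of 0.109, 0.211 and 0.109). The edgeR exact test on all 9 libraries called L19-1 higher under salt. Ribosomal proteins are encoded by families of similar genes, and counts were restricted to reads with a single place, so reads shared with a near-identical copy are missing from them. Alanine–tRNA ligase (DN7610_c0_g1_i1), which charges a tRNA for translation, had 2.53, 3.08 and 1.94 CPM in water deficit libraries, 1.40, 1.32 and 1.14 CPM in salt libraries and 0.500, 0.778 and 0.916 CPM in controls.

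Enzymes and transporters of sugars and of the cell wall were also members. A transcript like galacturonosyltransferase-like 9 (DN13905_c0_g1_i1), of a family of wall polysaccharide glycosyltransferases, had 1.65, 3.25 and 0.745 CPM in water deficit libraries, 0.500, 0.503 and 0.183 CPM in salt libraries and 0.100, 0.104 and 0.0678 CPM in controls, and its log2FC under water deficit was 4.53 ± 0.64. A transcript like sugar transport protein 13 (DN8623_c0_g2_i1), a hexose importer of the plasma membrane in Arabidopsis, had 3.25, 3.69 and 1.56 CPM in water deficit libraries, 0.70, 0.629 and 0.404 CPM in salt libraries and 0.20, 0.570 and 0.848 CPM in controls. Salt libraries lay within the range of the controls, and water deficit against salt was called, with a log2FC of 2.38 ± 0.45 and an edgeR FDR of 0.00747.

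Glucose-6-phosphate 1-epimerase (DN1722_c0_g1_i1), which interconverts the anomers of glucose 6-phosphate, had 1.39, 1.19 and 0.745 CPM in water deficit libraries, 0.400, 0.503 and 0.330 CPM in salt libraries and 0.300, 0.104 and 0.305 CPM in controls. An inhibitor of fructosidase (DN6821_c0_g1_i1), of a family that blocks invertases, had 5.27, 3.39 and 1.71 CPM in water deficit libraries, 2.70, 1.51 and 1.21 CPM in salt libraries and 1.00, 0.726 and 0.859 CPM in controls, so that water deficit 3 fell below salt 1.

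Amino acid turnover was represented at both ends of the ranking. A chloroplastic branched-chain amino acid aminotransferase (DN1886_c0_g1_i1), of the enzymes that make or break down leucine, isoleucine and valine, had 2.58, 1.54 and 0.819 CPM in water deficit libraries, 0.70, 0.251 and 0.220 CPM in salt libraries and 0.20, 0.0518 and 0.317 CPM in controls. A transcript like alpha-aminoadipic semialdehyde synthase (DN9566_c0_g1_i1), which carries out the first steps of lysine breakdown, had 5.68, 4.71 and 0.223 CPM in water deficit libraries, 0.400, 0.314 and 0.440 CPM in salt libraries and 0, 0.104 and 0.0339 CPM in controls. It had the highest log2FC of the members against controls, 6.21 ± 0.98, but 110, 107 and 3 counts in the water deficit libraries, so water deficit 3 was unlike the other two and below all salt libraries.

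Acetyl-CoA carboxylase 1-like (DN9346_c0_g1_i1), whose product malonyl-CoA feeds fatty acid synthesis and elongation, was well covered. It had 25.1, 23.0 and 17.9 CPM in water deficit libraries, 19.3, 16.5 and 14.8 CPM in salt libraries and 7.61, 8.04 and 4.41 CPM in controls. Water deficit and salt libraries overlapped, and both lay above every control, with log2FCs of 1.73 ± 0.31 under water deficit and 1.35 ± 0.31 under salt, and salt was not called (edgeR FDR of 0.211). A second transcript of the same description and assembly component, DN9346_c0_g2_i1, fell just below the limit of the ranking with a distance of 0.70.

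Members described as chaperones were a DnaJ domain protein and an Hsp70 protein. A transcript with a DnaJ domain (DN7857_c0_g1_i1), the mark of cochaperones of Hsp70, had 14.7, 9.50 and 19.9 CPM in water deficit libraries, 2.3, 1.63 and 2.64 CPM in salt libraries and 3.60, 4.25 and 3.61 CPM in controls. Every salt library lay below every control, although salt against control was not called, with a log2FC of -0.79 ± 0.32 and an edgeR FDR of 0.617. Water deficit against salt was called, with 2.73 ± 0.32 and an FDR of 0.000324. An Hsp70 chaperone (DN20497_c0_g1_i1) had 1.81, 2.20 and 1.64 CPM in water deficit libraries, 0.70, 0.754 and 0.770 CPM in salt libraries and 0.60, 0.518 and 0.882 CPM in controls, with the salt libraries inside the range of the controls.

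Transcripts of protein breakdown included an adaptor of ubiquitin ligases and a protease. F-box protein PP2-B12 (DN9630_c0_g1_i1), of a family that selects proteins for ubiquitination, had 6.61, 7.26 and 4.47 CPM in water deficit libraries, 3.40, 2.83 and 2.68 CPM in salt libraries and 1.80, 2.18 and 2.39 CPM in controls. A BTB/POZ protein (DN5424_c0_g1_i1), with a domain found in adaptors of cullin ligases, had 7.38, 5.72 and 4.10 CPM in water deficit libraries, 2.40, 3.71 and 4.95 CPM in salt libraries and 2.00, 1.35 and 2.20 CPM in controls. An RCR3-like cysteine protease (DN7868_c0_g1_i1), named after a secreted defence protease of tomato, had 7.54, 2.55 and 3.20 CPM in water deficit libraries, 2.40, 2.39 and 2.75 CPM in salt libraries and 1.40, 0.156 and 0.226 CPM in controls. In the last 2, salt and water deficit libraries overlapped while both lay above the controls.

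Transport, signalling and nucleic acid turnover supplied the remaining members of the named set. The copper-transporting ATPase RAN1 (DN5361_c0_g1_i1), which supplies copper to ethylene receptors in Arabidopsis, had 2.01, 1.63 and 1.42 CPM in water deficit libraries, 1.00, 1.01 and 0.917 CPM in salt libraries and 0.300, 0.467 and 0.486 CPM in controls. BIG (DN17911_c0_g1_i1), a very large protein needed for auxin transport in Arabidopsis, had 0.930, 1.45 and 0.745 CPM in water deficit libraries, 0.400, 0.629 and 0.367 CPM in salt libraries and 0, 0.156 and 0.0791 CPM in controls. In both, salt libraries stood between the other groups without overlap.

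Bifunctional nuclease 2 (DN7057_c0_g1_i1), an enzyme that cuts RNA and DNA, had 1.96, 1.14 and 1.19 CPM in water deficit libraries, 0.20, 0.251 and 0.110 CPM in salt libraries and 0.20, 0.467 and 0.350 CPM in controls. It was called higher under water deficit than under salt, with a log2FC of 3.01 ± 0.47 and an edgeR FDR of 0.00237. A leucine-rich repeat receptor-like kinase (DN8686_c0_g2_i1) had 7.18, 8.05 and 7.30 CPM in water deficit libraries, 5.60, 2.45 and 4.95 CPM in salt libraries and 3.80, 3.01 and 2.82 CPM in controls. Another such kinase (DN8516_c0_g1_i1) had 1.45, 1.85 and 1.34 CPM in water deficit libraries, 0.70, 0.440 and 0.807 CPM in salt libraries and 0.20, 0.674 and 0.724 CPM in controls. In neither kinase did the salt libraries separate from the controls.

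Salt beside water deficit was then described over all 96 members. The salt libraries were not compared in the choice, but they entered the filter on low counts and the scaling, and without salt 1, 2 or 3 there were 73, 78 and 81 members among the first 100. The 3 controls were compared in the choice, which prefers transcripts that are low in them, so a member tends to lie above the controls in any other group as well. Under salt, 0 of 96 members were called higher than controls (all tested transcripts: 0.0103%) and 0 lower (all tested: 0%). An unadjusted p under 0.05 with a positive log2FC was found for 42 members, where the share of all tested transcripts was 3.32%, and 2 further members had such a p with a negative log2FC. The edgeR exact test on 9 libraries called 6 members higher and 1 lower, of 10 higher and 10 lower among all 9686 tested transcripts. DESeq2 called 1 member higher and 1 lower, of 6 higher and 8 lower among all. The median log2FC of the members under salt was 0.69, between -2.18 and 3.71, beside -0.03 for all tested transcripts, and 81 of the 96 were above 0.

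No overlap between salt and control libraries was seen in 47 members with all salt libraries higher, where the share of all tested transcripts was 6.44%, and in 4 with all salt libraries lower, where it was 7.29%. On the log2 scale, the salt mean lay 43.3% of the way between the control mean and the water deficit mean in the median member. It lay below the control mean in 13 members, at 0% to 50% of that way in 44, at 50% to 100% in 36, and above the water deficit mean in 3. Library by library, 44 members had water deficit above all salt libraries and salt not separated upward from controls, 21 had all 3 groups in the order water deficit, salt and control without overlap, 26 had salt above control while not below water deficit, and 5 had salt overlapping both.

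Named members were found in each pattern. The clock transcripts, both nuclease 2 transcripts, the DnaJ and Hsp70 transcripts and the sugar transporter had salt not separated upward from controls, a pattern in which the median member had a log2FC under salt of 0.21 and under water deficit of 1.89. Ribosomal proteins L8-3 and L19-1, RAN1, BIG, the bromodomain protein, the F-box protein and the G-box binding factor were in the ordered pattern, with a median log2FC of 0.87 under salt and 1.92 under water deficit. Ribosomal protein S16-3, acetyl-CoA carboxylase 1-like, the RCR3-like protease, the BTB/POZ protein and the fructosidase inhibitor were in the pattern where salt reached water deficit, with medians of 1.41 under salt and 2.07 under water deficit. These patterns were read from the values, so their medians are descriptions.

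**Figure D3:**
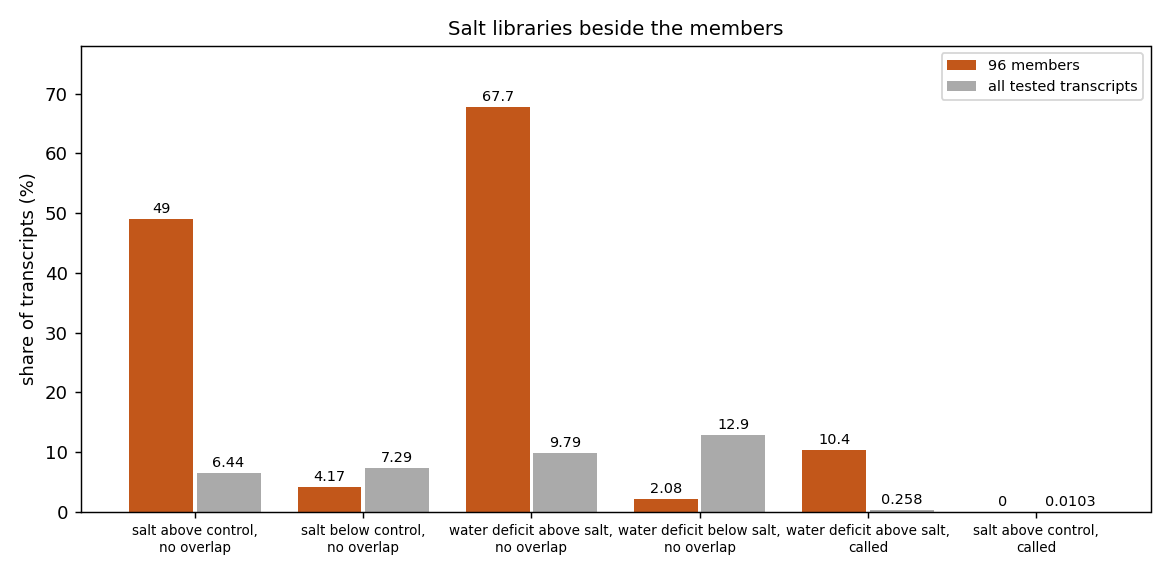
Share (%) of the 96 members (orange) and of all 9686 tested transcripts (grey) that meet each criterion named under the bars, without overlap of libraries or by a call at FDR below 0.01 and absolute log2FC above 1. The members exceed all tested transcripts where salt lies above controls without overlap, at 49.0% and 6.44%, but 0 members were called there.

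Between the stresses, 10 of 96 members were called higher under water deficit than under salt (all tested transcripts: 0.258%) and 0 lower (all tested: 1.86%). Without overlap, 65 members had all water deficit libraries above all salt libraries (all tested: 9.79%) and 2 had them below (all tested: 12.9%). The choice favours high water deficit libraries, which raises the counts of members higher under water deficit and lowers the counts of members lower under it. The unadjusted p for this comparison was under 0.05 in 56 members, and the median log2FC was 0.99, beside 0.05 for all tested transcripts. The edgeR exact test on 9 libraries called 23 members higher (all tested: 0.795%) and DESeq2 17 (all tested: 0.516%). Leaving out single libraries gave 4 to 24 calls, 24 without water deficit 3, 5 each without water deficit 1 or 2, 5 each without salt 1 or 3 and 4 without salt 2. Over all transcripts tested in these fits, the share called higher ran from 0.0421% without salt 2 to 1.67% without water deficit 3.

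The 10 called members were DN8466_c0_g1_i1, DN8313_c0_g1_i1, DN9552_c0_g1_i1, DN4582_c0_g2_i1, BOLTING TIME CONTROL 1, bifunctional nuclease 2, the DnaJ protein, the sugar transporter, a trichome birefringence-like 38 protein and a glycosyltransferase (DN6952_c0_g1_i1). Of these, 4 were called in each of the 9 fits that left out a library. All 10 had salt libraries that were not separated upward from the controls.

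Under salt, 4 members lay below all controls while they lay above them under water deficit. The clearest was DN9552_c0_g1_i1, described as uncharacterized, with 15.5, 14.3 and 14.5 CPM in water deficit libraries, 1.10, 0.754 and 1.5 CPM in salt libraries and 4.80, 5.08 and 5.68 CPM in controls. No library of a group overlapped another group. The libraries spanned 0.12 on the log2 scale under water deficit, 0.93 under salt and 0.24 in controls. Its log2FC was 1.51 ± 0.26 under water deficit and -2.18 ± 0.29 under salt, where the edgeR quasi-likelihood FDR was 0.0135, above the limit of 0.01, while the exact test on 9 libraries gave an FDR of 1.45e-06 and DESeq2 5.06e-06. Water deficit against salt had a log2FC of 3.69 ± 0.30 and an FDR of 4.18e-05.

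The other members of this kind were the DnaJ transcript given above, a glycosyltransferase and DN11437_c0_g1_i1. The glycosyltransferase (DN6952_c0_g1_i1) had 2.07, 1.93 and 1.04 CPM in water deficit libraries, 0.300, 0.314 and 0.367 CPM in salt libraries and 0.400, 0.570 and 0.531 CPM in controls. The unnamed DN11437_c0_g1_i1 had 1.39, 1.01 and 1.04 CPM in water deficit libraries, 0.300, 0.251 and 0.367 CPM in salt libraries and 0.400, 0.518 and 0.396 CPM in controls. The difference between salt and control rested on few counts in both: 3, 5 and 10 in salt libraries against 4, 11 and 47 in controls for DN6952_c0_g1_i1, and 3, 4 and 10 against 4, 10 and 35 for DN11437_c0_g1_i1. Control 3 has the largest scaled library size.

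Some further members are given to complete the account and were chosen after their values were seen. A TRAF-like protein (DN27061_c0_g1_i1) was higher under salt than under water deficit without overlap, with 1.86, 1.5 and 1.86 CPM in water deficit libraries, 2.20, 2.26 and 2.20 CPM in salt libraries and 0.801, 0.518 and 0.113 CPM in controls. Its difference between the stresses was small, with a log2FC of -0.36 ± 0.44 for water deficit against salt. DN180_c0_g1_i1 was the other member with this order.

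A pair of transcripts from 1 assembly component was described as ACT domain proteins, a domain that binds amino acids. ACR10-like (DN8985_c0_g3_i1) had 5.58, 5.72 and 3.43 CPM in water deficit libraries, 2.00, 1.57 and 1.61 CPM in salt libraries and 1.70, 1.19 and 0.871 CPM in controls. Its neighbour DN8985_c0_g2_i1 had 2.74, 2.46 and 1.27 CPM in water deficit libraries, 1.00, 0.629 and 0.734 CPM in salt libraries and 0.300, 0.518 and 0.599 CPM in controls. Since they share a component, they are not independent of each other.

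The trichome birefringence-like 38 transcript (DN8668_c0_g1_i1), of a family that acetylates wall polysaccharides, had 4.39, 7.39 and 5.89 CPM in water deficit libraries, 1.80, 0.817 and 1.25 CPM in salt libraries and 1.70, 1.30 and 2.3 CPM in controls. An NRT1/PTR transporter (DN19845_c0_g1_i1), of the nitrate and peptide transporter family, had 1.91, 1.85 and 2.38 CPM in water deficit libraries, 0.70, 0.377 and 0.477 CPM in salt libraries and 1.00, 0.311 and 0.407 CPM in controls. The arginine transporter BAC2 of mitochondria (DN990_c0_g2_i1) had 1.81, 2.68 and 0.894 CPM in water deficit libraries, 0.70, 0.503 and 0.770 CPM in salt libraries and 0.500, 0.311 and 0.317 CPM in controls. CTP synthase-like (DN2973_c0_g1_i1), an enzyme of pyrimidine nucleotides, had 2.01, 1.45 and 0.670 CPM in water deficit libraries, 0.60, 0.754 and 0.697 CPM in salt libraries and 0.20, 0.363 and 0.181 CPM in controls.

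A description was at hand for 51 of the 96 members, of which 42 carried a usable name and 9 were unnamed or uncharacterized, and 45 had none. The descriptions come from lists that the study chose on these libraries, so a name and a call here are not independent. Called under water deficit were 33 of the 42 named members and 14 of the 45 without a description. Whether named members changed by more was not tested. The 96 members came from 94 assembly components. Of the 42 named members, 19 were in a pathway list and 23 in none.

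Pathway lists were read from the same descriptions, so their direction is not independent evidence. Most of their transcripts come from the study's list of those higher under water deficit, chosen on these libraries. This held for 15 of 15 regulators and clock components and 26 of 30 of the calcium, kinase and ion transport list. Calls in the higher direction were therefore largely fixed beforehand. Over all 9686 tested transcripts, 0.96% were called higher and 317 were called lower. Of tested transcripts described as regulators and clock components, 5 of 14 were called higher under water deficit and 0 lower, with 4 members. The counts were 4 of 13 with 1 member for abscisic acid signalling, 5 of 10 with 3 members for raffinose, starch, sucrose and hexose transport, 5 of 14 with 2 members for amino acid, glyoxylate and organic acid turnover, and 3 of 12 with 2 members for chaperones. They were 4 of 14 with 3 members for protein breakdown, 1 of 15 with 1 member for membrane lipids, and 5 of 28 with 3 members for calcium, kinases and ion transport, where 1 was called lower. Dehydration proteins, with 2 of 11 called, the enzymes of glycine betaine, proline and polyamines, with 0 of 13, antioxidants, with 4 of 12, and viral or mobile elements, with 0 of 6, held no member, although 3 of the ids set aside were antioxidants. Neither of the 2 transcripts for chlorophyll breakdown was tested. Under salt, the antioxidant list had 1 transcript called higher (all tested transcripts: 0.0103%), and no transcript of another list was called in either direction.

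The separation of the members depended on the scaling of the libraries. With library totals as the only scaling, the median log2FC of all tested transcripts moved to -1.18 under water deficit and -0.93 under salt, and 21 of the 96 members still met the separation and the margin. Relative to that median, all 96 members were above it under water deficit, by a median of 1.98, and 80 were above it under salt, by a median of 0.86, but 7 had a log2FC below 0 under water deficit and 52 under salt. Levels are therefore given relative to the bulk of transcripts. The members were chosen under TMM scaling, so their place above the median of all tested transcripts under water deficit was largely fixed. It is not a result. The ranking also rested on single libraries: without water deficit 3, 10 of the members were among the first 100.

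**Figure D4:**
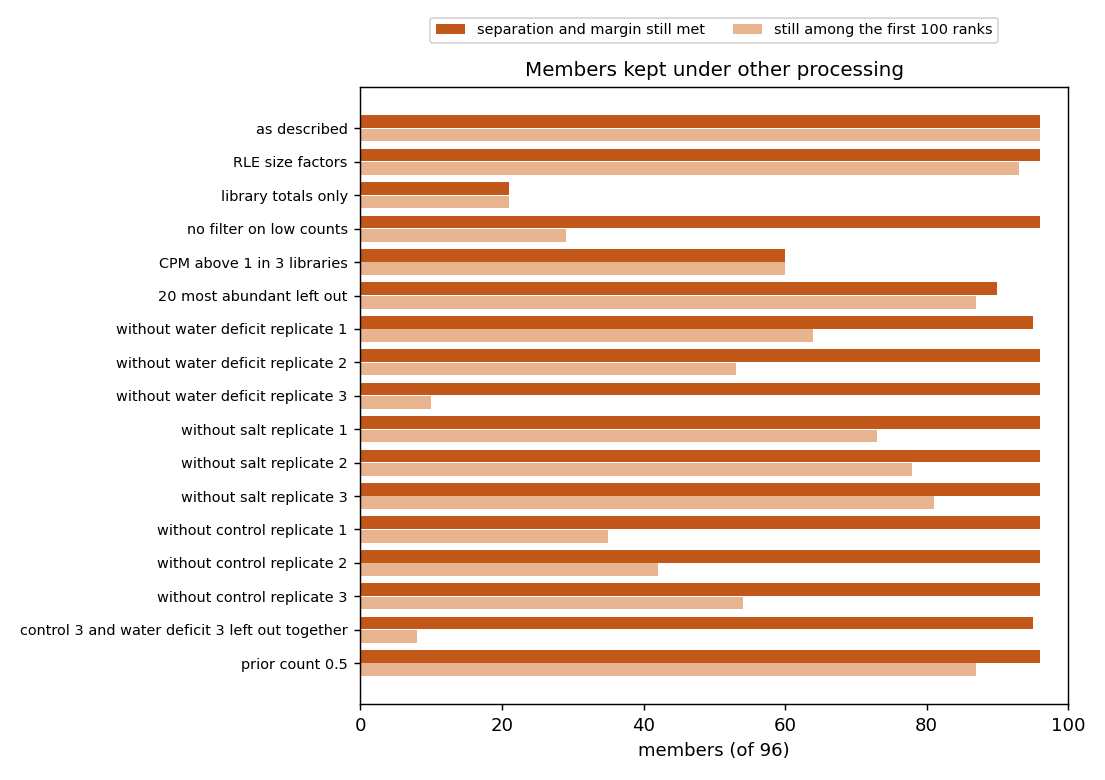
Number of the 96 members (x axis) that still met the separation and margin (dark bars) and that were still among the first 100 ranks (light bars) under each alternative (y axis). The dark bar falls to 21 with library totals only. With 1 library left out it stays at 95 or 96, which the choice of members largely fixes, and the 60 members under CPM above 1 in 3 libraries are those tested there.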

How the data were processed

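Leaf RNA of A. hybridus was measured in 9 libraries, 3 per group. The authors trimmed single-end reads with Trimmomatic, assembled them, mapped them with Bowtie2 (version 2.3.0 in the submitters' processing notes) and deposited raw counts of uniquely mapped reads per transcript, without normalization. Columns were matched to samples by their descriptions, and 0 sample columns were left without a match. Counts of the second species were not used here.

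The count table was tested with edgeR 4.0.16 (main) and DESeq2 1.42.0, under R 4.3.3. Transcripts kept by filterByExpr were scaled by TMM, library sizes being recomputed after the filter. log2 CPM used a prior count of 2. CPM is not corrected for transcript length, so levels are compared within a transcript. glmQLFit and glmQLFTest were run on all 9 libraries, with 3 groups and 6 residual degrees of freedom, for water deficit against control, salt against control (which share the controls) and water deficit against salt. A call has a Benjamini-Hochberg FDR below 0.01 over all tested transcripts and an absolute log2FC above 1. Each SE was obtained from the log2FC and the F statistic of its test. The functions were tested on simulated data.

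The alternatives were the edgeR exact test on the 6 libraries of a comparison or on 9, DESeq2, the quasi-likelihood fit on 6 libraries, RLE factors, library totals, other filters, other limits, the 20 most abundant transcripts left out, a prior count of 0.5, a fit with a replicate block, and fits that omit 1 library at a time. The study also used the exact test on pairs of groups, but with an absolute log2FC above 2, whereas the limit here was 1. Chosen after seeing the data were control 3 and water deficit 3 left out together, a minimum of 10 counts in water deficit libraries, and the count of members above all salt libraries. The members, the pathway lists and the tests were chosen with earlier results of these data known. Named with values are the 15 named and 5 unnamed members with the largest distance, up to 4 further members of each pathway list, those at the limit of the ranking, and those below all controls under salt. The libraries are separate pools of plants, and counting error and pool differences are both in the spread. Sequences are not printed because none were at hand.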

Additional observations from a re-analysis of the deposited data

How the results depend on the processing

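Counts of called members differed between settings. Shares in brackets are those called higher over all transcripts tested in the same fit. For water deficit against control, 54 members were called (0.96%). The quasi-likelihood fit on 6 libraries tested 90 of the members and called 12 (0.167%). Library totals gave 0 (0%), and an FDR below 0.05 gave 88 (3.04%). An absolute log2FC above 2 gave 33 (0.671%), and the replicate number as a block gave 26 (0.413%). With a library left out, 15 to 65 were called (0.178% to 2.93%). For water deficit against salt, 10 were called (0.258%), and 23 with the exact test on 9 libraries (0.795%). The exact test on 6 libraries tested 88 of the members and called 29 (1.19%). DESeq2 called 17 (0.516%), library totals gave 0 (0%), and an FDR below 0.05 gave 29 (1.03%). Without control 3 and water deficit 3 together, 35 were called (3.65%). With a library left out, 4 to 24 were called (0.0421% to 1.67%). For salt against control, 0 were called higher (0.0103%), and 6 with the exact test on 9 libraries (0.103%). The exact test on 6 libraries tested only 51 of the members and called 1 (0.048%). DESeq2 called 1 (0.0619%), and 1 was called without a filter (0.0166%). The cause of these differences was not tested. Same-numbered libraries did not deviate together (correlations of -0.16 to 0.25). The study's methods describe a randomized block layout, but the sources used here do not tie replicate numbers to blocks, so whether the numbers mark blocks is unknown. With the replicate block, 7 members were called for water deficit against salt (0.196% of all tested transcripts).

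With library totals, 12 members instead of 47 had all salt libraries above all controls, 28 instead of 65 had all water deficit libraries above all salt libraries, 21 instead of 96 kept the rule, and the median log2FC under salt was -0.069 instead of 0.69. Under that scaling the log2FC for water deficit against control was -0.03485 for the kinase DN8516_c0_g1_i1 and -0.24 for DN4477_c0_g1_i1. No other named member changed sign in that comparison under an alternative run. For water deficit against salt, signs were followed only for named members called in the main fit, and none changed. Over all 96 members, 93 had a log2FC above 0 for water deficit against salt in the main fit. With library totals 13 were below 0. Over all tested transcripts, 93 were called higher under water deficit than in controls, and 208 with the exact test on 9 libraries, 158 with DESeq2 and 15 with the quasi-likelihood fit on 6 libraries. With CPM above 1 in at least 3 libraries, 60 members were tested and 60 kept the rule, and 81 members had at least 10 counts in every water deficit library. The 12.5 counts of the median member limit what can be seen: changes of a few counts cannot be seen at this depth.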
